A study of Homo sapiens with 24 samples.

Results

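CCL5, the chemokine also known as RANTES (SCYA5 in the deposited table), is described here across 24 arrays of RNA recovered by immunoprecipitation from human airway epithelial cells. It is the row with the symbol CCL5, and it is 1 of 355 genes with values. It was chosen by its own values on these arrays, namely a level that was high after 18 h of cytokine and not after 3 h. Its stimulated, untreated, 3 h and 18 h levels are therefore given as a description with no test. The comparison of the antibodies did not choose it and is tested.

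The study recovered RNA bound to HuR, an RNA-binding protein, from BEAS-2B, an established line of bronchial epithelium from a human. Cells received TNFα and IFNγ, each at 50 ng/ml, or were left untreated in PBS, for 3 h or 18 h. Lysates of equal cell numbers were immunoprecipitated with the HuR antibody 3A2 (HuR IP) or with an IgG1 isotype control (IgG1 IP), and the 33P-labelled cDNA was hybridised to membranes. Each of the 8 groups holds 3 arrays, numbered sets 1, 3 and 4, which the design text calls biological replicates. All groups come from the 1 cell line, and levels in the lysate before immunoprecipitation were not analysed here. The vendor label of the HuR antibody is Santa Cruz on the untreated arrays and R&D on the stimulated arrays, while the protocol names Santa Cruz alone, so in the HuR IP stimulation and that label cannot be told apart.

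CCL5 is a secreted CC chemokine that draws T cells, monocytes and eosinophils through receptors that include CCR1 and CCR3. In airway epithelium TNFα and IFNγ are known inducers of CCL5, and its promoter is described as bound by NF-κB and by interferon regulatory factors such as IRF1. HuR, the product of ELAVL1, binds U-rich and AU-rich stretches of mRNA and is known for raising the stability of many of the transcripts it holds, while an IgG1 isotype control recovers RNA that sticks without a specific antibody.

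Each array has its own overall brightness, with array medians between 2303 and 23848 intensity units. Levels are therefore given as log2 intensity minus the array median over the 355 genes, called the centred level, on which 0 is the middle gene of that array. Set 1 stood apart from the others, since log2 values across genes had a median correlation of 0.394 between set 1 and sets 3 and 4, against 0.766 between set 3 and set 4. These correlations run across genes, which are not independent replicates.

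After 18 h of TNFα and IFNγ, CCL5 stood far above the middle of the array in both immunoprecipitates, while in the other 6 groups it lay between -1.14 and 0.19. In the HuR IP its centred level was 2.32, 3.54 and 3.47 in stimulated cells at 18 h in sets 1, 3 and 4, against 0.19, -0.23 and -1.14 in untreated cells. In the IgG1 IP it was 0.97, 5.51 and 3.66 in stimulated cells at 18 h, against 0.11, 0.02 and -0.32 in untreated cells. The stimulated and untreated arrays did not overlap with either antibody. The lowest stimulated array, of set 1 with IgG1, was still above each untreated one, and the highest and the lowest of the stimulated 18 h arrays were both IgG1 arrays.

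**Figure D1:**
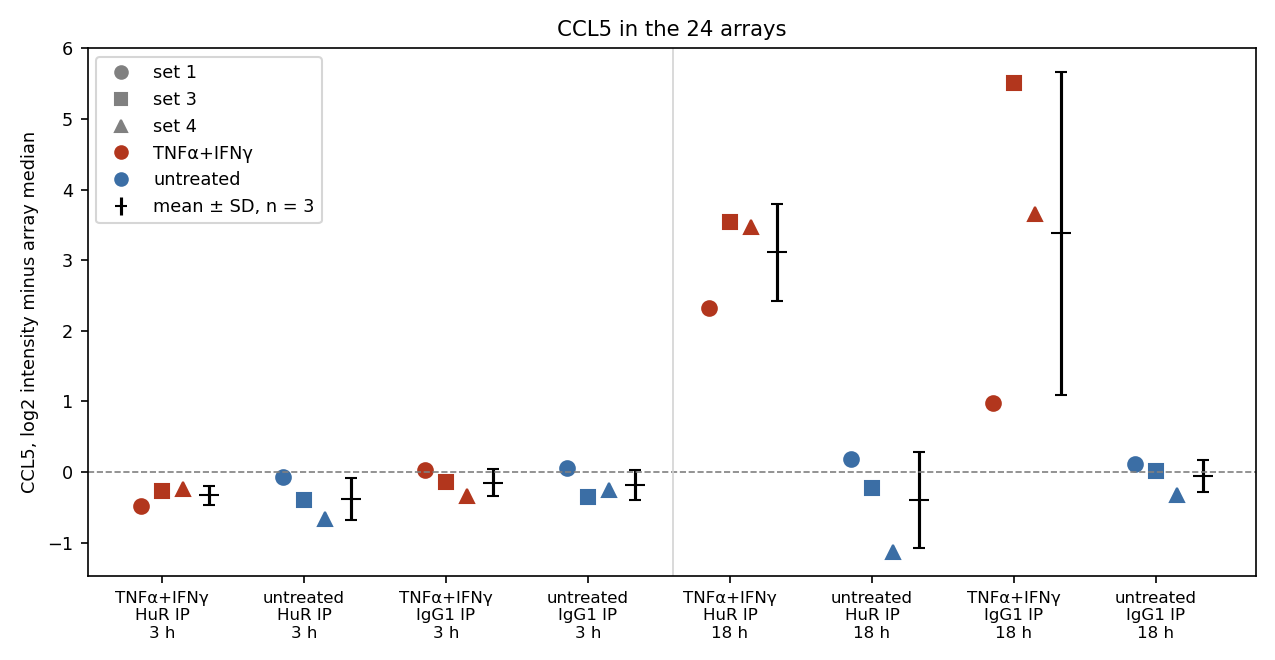
Log2 CCL5 intensity minus the array median (vertical axis) in the 24 arrays by agent, antibody and time (horizontal axis). Each symbol is 1 array, its shape gives the set, and bars are the mean ± SD of 3 arrays. The 6 stimulated arrays at 18 h sit between 0.97 and 5.51, and the other 18 between -1.14 and 0.19.

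At 3 h CCL5 showed no such separation. In the HuR IP its centred level was -0.48, -0.27 and -0.24 in stimulated cells, against -0.07, -0.40 and -0.67 in untreated cells. In the IgG1 IP it was 0.03, -0.14 and -0.34 in stimulated cells, against 0.05, -0.35 and -0.26 in untreated cells. Stimulated and untreated arrays overlapped with both antibodies, and at 3 h CCL5 lay below the middle of the array on 10 of the 12 arrays.

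Over the 6 stimulated arrays at 18 h the lowest, median and highest centred levels were 0.97, 3.51 and 5.51, against -1.14, -0.25 and 0.19 over the other 18 arrays. Ordered from the brightest gene down, CCL5 ranked between 4 and 39 of 355 on the 6 arrays and between 113 and 344 on the 18. This rank does not depend on how an array is scaled, although a spot's place also depends on its probe. Both measures part the 6 arrays from the 18 with no overlap.

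The deposited intensities, which carry each array's own brightness, part the arrays less cleanly. In stimulated cells at 18 h CCL5 had 65233, 94805 and 156150 units in the HuR IP, against 21574, 3826 and 3191 in untreated cells. With IgG1 at 18 h it had 5903, 105046 and 156305 units in stimulated cells, against 12754, 5722 and 12732 in untreated cells. The set 1 IgG1 array is the exception. There the stimulated CCL5 intensity of 5903 was below the untreated 12754, on arrays whose medians were 3021 and 11831, so its higher centred level of 0.97 came with a dim array.

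On the 18 arrays outside the stimulated 18 h groups, CCL5 was between 1.16 and 2.02 times the lowest gene of the same array. On the 6 stimulated 18 h arrays it was between 2.84 and 91.7 times that gene. How background was treated is not stated in the files or labels, so low levels may hold mostly background, and folds against them rest on values close to the dimmest genes. As bulk values they also cannot tell more cells carrying CCL5 RNA from more CCL5 RNA per cell.

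**Figure D2:**
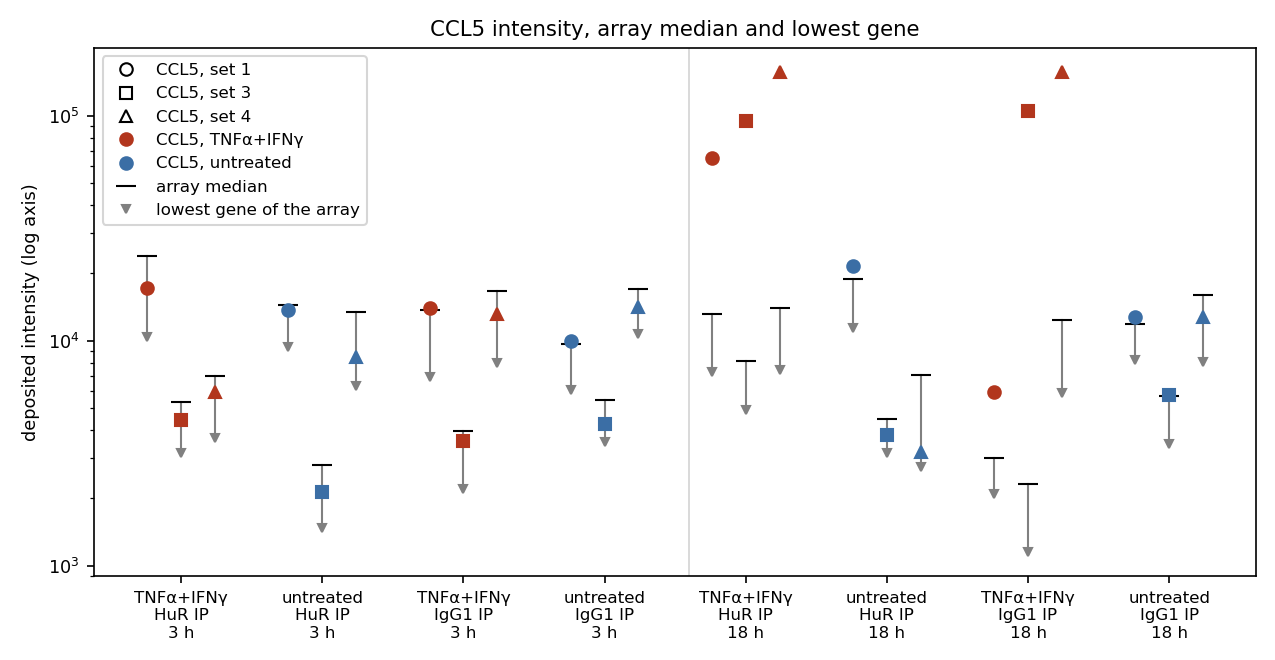
Deposited CCL5 intensity (symbols, shape by set), the array median (dash) and the lowest gene of the array (grey triangle) for each of the 24 arrays, on a log axis by agent, antibody and time. At 18 h the set 1 stimulated IgG1 array holds CCL5 at 5903 units over a median of 3021, below the 12754 units of its untreated counterpart.

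Ordered by group mean, the stimulated IgG1 IP at 18 h came first with 3.38 ± 2.29 (SD, n = 3 arrays in this and each other group), followed by the stimulated HuR IP at 18 h with 3.11 ± 0.69. These neighbours were 0.27 apart, less than the larger of their SDs. The next group, the untreated IgG1 IP at 18 h, averaged -0.07 ± 0.23, a gap of 3.18 that is larger than both SDs. Below it came the stimulated IgG1 IP at 3 h with -0.15 ± 0.19, the untreated IgG1 IP at 3 h with -0.19 ± 0.21 and the stimulated HuR IP at 3 h with -0.33 ± 0.13. The lowest were the untreated HuR IP at 3 h with -0.38 ± 0.30 and at 18 h with -0.39 ± 0.68. Steps between these lower 6 groups were 0.01 to 0.14 and did not exceed the larger SD of either neighbour.

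As fitted differences, CCL5 at 18 h was higher in stimulated than in untreated cells by 3.50 ± 0.69 (SE) in the HuR IP, or 11.3-fold on the centred intensities. The 3 sets gave 2.12, 3.77 and 4.62. After the normexp background correction this difference was 5.71, so its size depends on how the dim untreated values are treated. In the IgG1 IP the difference was 3.44 ± 0.69, or 10.9-fold, from 0.86, 5.49 and 3.98 in the 3 sets. The direction was the same in each of these 6 pairs of arrays, and set 1 gave the lowest value with both antibodies. Without set 1 the difference was 4.19 in the HuR IP and 4.74 in the IgG1 IP, and without set 3 it was 2.42 in the IgG1 IP. Without centring it was 2.23, where the median gene moved by -1.20, so that CCL5 relative to that gene differed by 3.44.

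At 3 h the difference in CCL5 between stimulated and untreated cells was 0.05 ± 0.69 in the HuR IP and 0.04 ± 0.69 in the IgG1 IP. The sets did not share a direction, with -0.41, 0.13 and 0.43 in the HuR IP and -0.02, 0.21 and -0.08 in the IgG1 IP. Between the times, stimulated cells had more CCL5 at 18 h than at 3 h by 3.44 in the HuR IP (2.79, 3.81 and 3.71 by set) and by 3.53 in the IgG1 IP (0.94, 5.65 and 4.00 by set). Untreated cells differed between 18 h and 3 h by -0.01 and 0.12. By size, the gain of the stimulated difference between 3 h and 18 h ranked 1 of 355 genes in each antibody's arrays, at 3.45 ± 0.97 in the HuR IP and 3.41 ± 0.97 in the IgG1 IP, which restates what the gene was chosen for.

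Whether CCL5 was held by HuR beyond the isotype control is the comparison the series title asks of chemokine transcripts. CCL5 was no higher with the HuR antibody than with the isotype control beyond its error. Over the 4 conditions the centred level averaged 0.50 in the HuR IP and 0.74 in the IgG1 IP, a difference of -0.24 ± 0.34 (limma, SE, 95% interval -0.96 to 0.48, adjusted p = 0.992). As a ratio of the HuR IP to the IgG1 IP this is 0.847, with an interval of 0.513 to 1.40. Set 1 gave a difference of 0.20, and sets 3 and 4 gave -0.60 and -0.32. Without set 1 the difference was -0.46 (limma adjusted p = 0.996), and without set 3 it was -0.06. Outside stimulated cells at 18 h, CCL5 was at most 2.02 times the lowest gene of its array. This mean therefore draws largely on levels that may be mostly background.

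**Figure D3:**
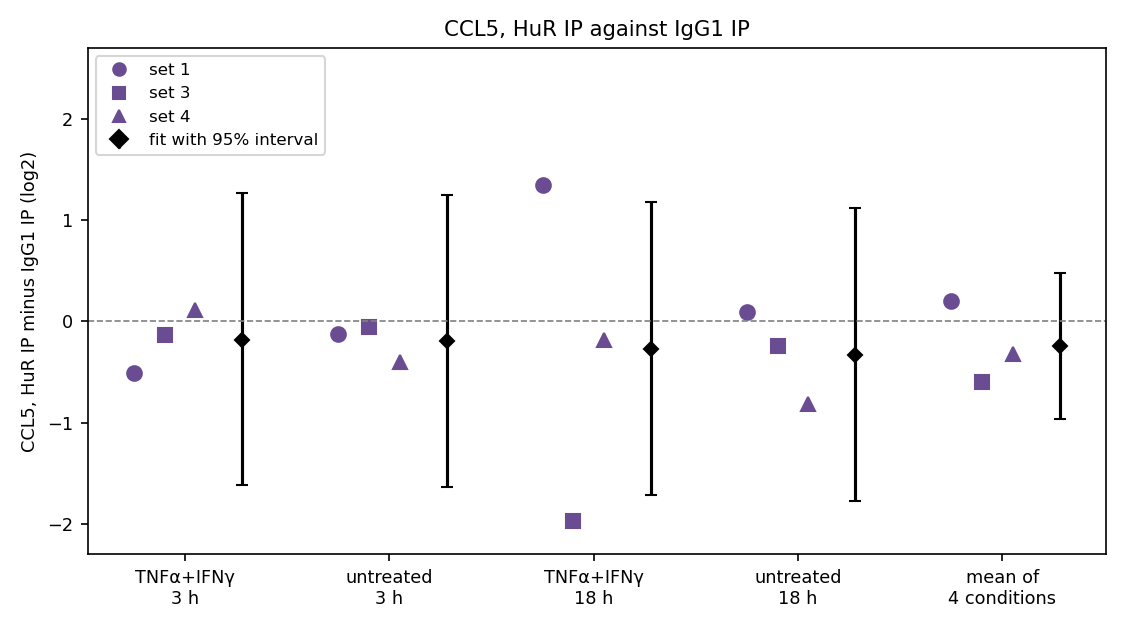
HuR IP minus IgG1 IP of the log2 centred CCL5 level (vertical axis) in each condition and as the mean of 4 conditions (horizontal axis). Coloured symbols are sets and black diamonds are the fit with its 95% interval. Each interval spans 0, and in stimulated cells at 18 h the sets lie between -1.97 and 1.35.

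Taken by condition, the differences between the HuR IP and the IgG1 IP were small beside their errors. In stimulated cells at 3 h CCL5 differed by -0.18 (interval -1.62 to 1.27, limma adjusted p = 0.999), and in untreated cells at 3 h by -0.19 (interval -1.64 to 1.25, limma adjusted p = 0.999). At 18 h the difference in untreated cells was -0.33 (interval -1.77 to 1.12, limma adjusted p = 0.999). The spread in these intervals is shared over all 24 arrays and so includes the wide stimulated IgG1 group at 18 h. Fitted on the 6 arrays of a condition alone, the intervals were -0.69 to 0.34 in stimulated cells at 3 h, -0.71 to 0.33 in untreated cells at 3 h and -1.22 to 0.56 in untreated cells at 18 h, with adjusted p = 0.999 in limma for each. In these conditions CCL5 was only 1.16 to 2.02 times the lowest gene of its array. Differences between such low levels may be held near 0, so the narrower intervals say little about HuR.

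In stimulated cells at 18 h, where CCL5 was high, the HuR IP differed from the IgG1 IP by -0.27 (interval -1.71 to 1.18, limma adjusted p = 0.990). The sets did not share a direction, with 1.35 in set 1, -1.97 in set 3 and -0.18 in set 4. On these 6 arrays alone the interval was -3.09 to 2.55 (limma adjusted p = 0.992). The set 3 IgG1 array, which gave the highest centred CCL5 level of all, also had the lowest median of the 24 arrays, at 2303 units; its part in the result was not tested, and without that array the difference was 0.80 (limma adjusted p = 0.999). Without the set 1 IgG1 array it was -1.47, and without both arrays of set 1 it was -1.07 (limma adjusted p = 0.677).

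The sign of this difference also turned with the scaling. On the deposited intensities the ratio of the HuR IP to the IgG1 IP for CCL5 in stimulated cells at 18 h was 11.1, 0.903 and 0.999 in sets 1, 3 and 4, on arrays whose medians had ratios of 4.33, 3.53 and 1.13. Without centring the log2 difference was 1.11, and it was 1.37 in the second deposited table (limma adjusted p = 0.141), while the median gene moved by 1.35 and 1.61. CCL5 relative to that gene was -0.24 under both. Each scaling differs from the centred one by 1 amount per array, which cancels here, so this is no separate check. Centring also removes any shift shared by most genes, so it cannot show a general gain in recovery with the HuR antibody. Across the 12 pairs of arrays of one set and condition, CCL5 was higher in the HuR IP in 3 on the centred scale and in 5 on the deposited intensity.

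The response to the cytokines was compared between the antibodies as well. The difference of the stimulated change, HuR IP minus IgG1 IP, was 0.02 ± 0.97 at 3 h (interval -2.03 to 2.06, limma adjusted p = 0.999). At 18 h it was 0.06 ± 0.97 (interval -1.98 to 2.10, limma adjusted p = 0.994), from 1.26, -1.73 and 0.64 in the 3 sets. That value depends on the scaling and on set 1: it was 1.71 without centring (limma adjusted p = 0.382), 2.04 in the second deposited table (limma adjusted p = 0.145), 1.16 after normexp and -0.54 without set 1 (limma adjusted p = 0.630). The median gene moved by 1.66 without centring and by 1.99 in the second table, and CCL5 relative to it differed by 0.05 under both. That again follows from the centred result and is no separate check. For the gain between 3 h and 18 h the difference between the antibodies was 0.04 ± 1.38 (interval -2.85 to 2.93, limma adjusted p = 0.997). It was 2.02 in the second table and -0.76 without set 1. CCL5 was not alone in this: limma called 0 of 355 genes, 0.0%, in each of these 8 comparisons of the antibodies, and 12 genes had an unadjusted p under 0.05 for the mean of the 4 conditions. In stimulated cells at 18 h 11 did, in untreated cells at 3 h 1 did, and 0 did in the other 5. These counts of 0 called genes do not show that HuR held no transcript. The errors are wide and take in differences between sets.

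The genes whose centred levels most resembled CCL5 over the 24 arrays were IL18BP, IL15RA, CXCL11, CFB and CXCL10. IL18BP, a secreted protein that neutralises IL-18, had r = 0.91. IL15RA, the alpha chain of the IL-15 receptor, had r = 0.89, and CXCL11, a chemokine that draws activated T cells through CXCR3, had r = 0.87. CFB, complement factor B, had r = 0.79 and CXCL10, another CXCR3 ligand, 0.76. The kinase JAK2 followed with r = 0.70, and RELA, a subunit of NF-κB, with r = 0.68. The median over the other genes was -0.02. Of the 8 most alike, 7 are on a list of genes inducible by IFNγ, beside 16 of all 355 genes. The list was drawn up with earlier results known. CCL5 itself was chosen for its late cytokine response, so this share is no separate finding.

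These correlations rest mostly on the 6 stimulated 18 h arrays, which stand apart. The 24 arrays share the cell line, 3 set numbers and a centring on the same genes. Among those 6 arrays r with CCL5 was 0.98 for IL15RA, 0.97 for RELA, 0.96 for CFB, 0.95 for CXCL11 and 0.88 for IL18BP. Among the other 18, where CCL5 was at most 2.02 times the lowest gene of its array, r was 0.39 for IL15RA, -0.43 for RELA, -0.29 for CFB, 0.37 for CXCL11 and 0.20 for IL18BP. Over the 8 group means the closest were SAA1, an acute-phase protein, with r = 0.95, IL18BP with 0.94, IL15RA with 0.93 and CFB with 0.92. CCL7, with 0.91 there, had r = -0.02 among the 6 arrays and 0.86 among the 18. By Spearman rank correlation over the 24 arrays, 2 of the 8 genes were shared.

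**Figure D4:**
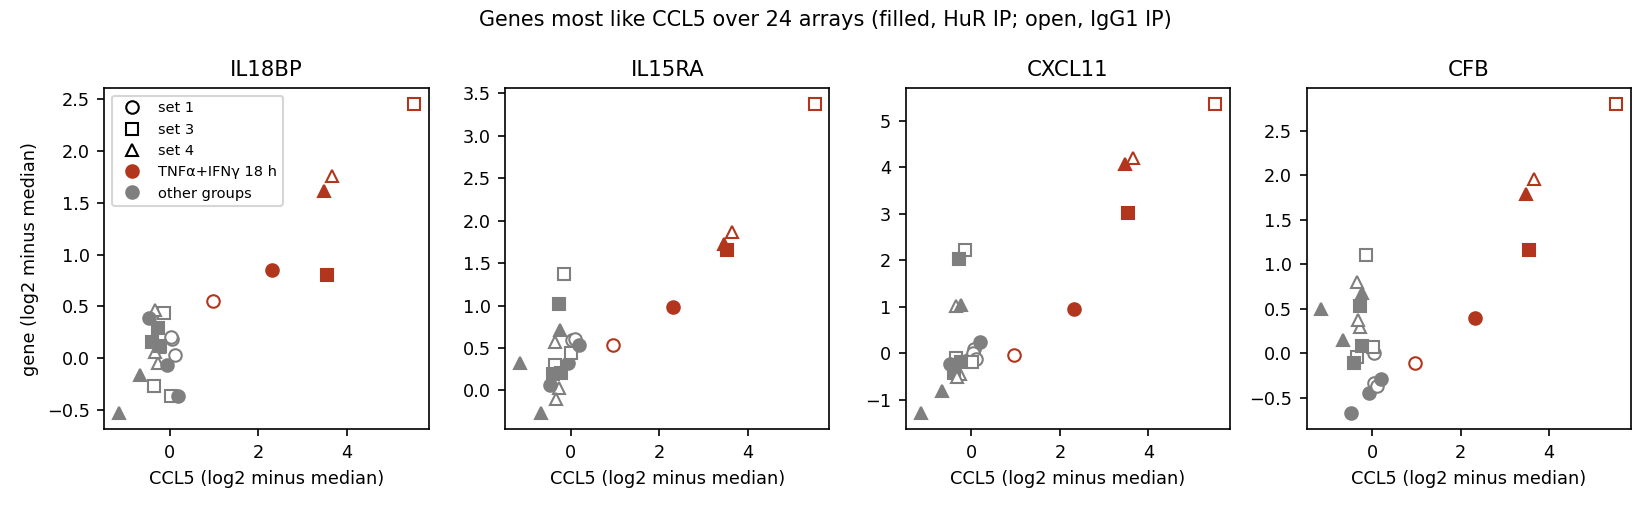
Centred log2 level of IL18BP, IL15RA, CXCL11 and CFB (vertical axes) against that of CCL5 (horizontal axes), 1 symbol per array, 24 arrays per panel. Red marks stimulated cells at 18 h, grey the other groups, filled symbols the HuR IP and open symbols the IgG1 IP. The stimulated 18 h arrays spread along CCL5 levels of 0.97 to 5.51, and the others cluster near 0.

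Array by array, some of the like genes had the same highest and lowest array as CCL5, though not always the same order between them. CXCL11 in stimulated cells at 18 h stood at 0.95, 3.01 and 4.07 in the HuR IP and at -0.03, 5.36 and 4.21 in the IgG1 IP. IL15RA stood at 0.98, 1.65 and 1.72 in the HuR IP and at 0.53, 3.38 and 1.86 in the IgG1 IP. For both genes, as for CCL5, the set 3 IgG1 array was the highest and the set 1 IgG1 array the lowest of the 6, and the same held for IL18BP, CFB, CXCL10 and RELA. It did not hold for JAK2, which was lowest on the set 1 HuR array at -0.25, or for SAA1, which was highest on the set 4 HuR array at 2.95. CCL7 was highest on the set 4 HuR array at 0.29 and lowest on the set 4 IgG1 array at -0.32. The shared highest and lowest arrays were not particular to the like genes. IRF1 (3.37 and 0.64), NFKB2 (1.52 and -0.03) and CEBPB (3.8 and 0.11) had them too, while ICAM1 and CCL2 did not. The set 3 IgG1 array also had the lowest median, at 2303 units. Its part in this order and in the r among the 6 arrays was not tested. Over the 16 measured genes of the IFNγ list the median stimulated change at 18 h was 0.75, 1.27 and 1.55 by set in the HuR IP, beside 2.12, 3.77 and 4.62 for CCL5. With IgG1 the median was 0.47, 2.88 and 1.83, beside 0.86, 5.49 and 3.98 for CCL5.

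Other IFNγ-inducible genes give the changes to set beside the late one for which CCL5 was chosen. CXCL10 changed by 3.12 at 3 h and 4.26 at 18 h in the HuR IP (adjusted p = 0.0516 at 18 h, limma), and by 2.92 and 4.68 in the IgG1 IP, where it rose at 18 h (limma adjusted p = 0.0259). CXCL11 changed by 1.41 at 3 h and 3.09 at 18 h in the HuR IP and by 1.23 and 3.45 in the IgG1 IP, and passed in none. IL18BP changed by 0.28 and 1.35 in the HuR IP and by 0.41 and 1.68 in the IgG1 IP, where it rose at 18 h (limma adjusted p = 0.0168). ICAM1, an adhesion molecule for leukocytes, changed by 3.38 at 3 h and 2.60 at 18 h in the HuR IP and by 3.48 and 3.26 in the IgG1 IP, passing in none.

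As a list, IFNγ-inducible genes had 16 of 31 members measured. In the HuR IP 1 rose at 3 h and 2 at 18 h, and in the IgG1 IP 1 rose at 3 h and 4 at 18 h, with 0 falling. Over all 355 genes limma called 0.563% at 3 h and 1.13% at 18 h in the HuR IP, and 1.13% at 3 h and 1.41% at 18 h in the IgG1 IP, all of them higher. The list's median change was 0.65 at 3 h and 1.22 at 18 h in the HuR IP, beside -0.09 and 0.03 over all genes. With IgG1 it was 0.60 and 1.64, beside -0.09 and 0.01. These calls lean on the sets: without set 1 the number of all genes called was 19 at 3 h and 11 at 18 h in the HuR IP and 17 and 24 in the IgG1 IP, and without set 3 or without set 4 it was 0 in each. Leaving out single arrays moved it between 0 and 18. With the set number fitted as a block, the number called was higher in each comparison. The calls named here come from the fit without that block.

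**Figure D5:**
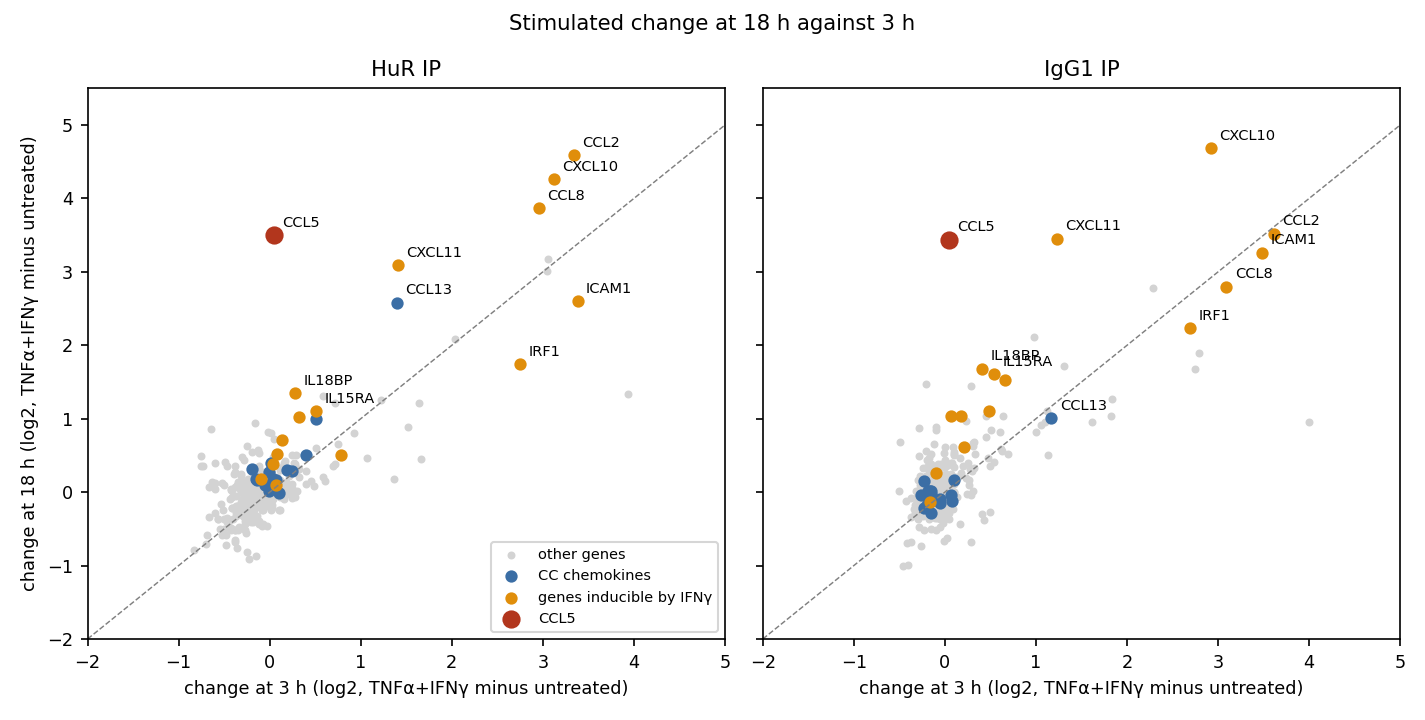
Log2 change in stimulated minus untreated cells at 18 h (vertical axis) against 3 h (horizontal axis) for each gene in the HuR IP (left) and the IgG1 IP (right), with equality dashed and 2 genes not plotted. CCL5 (red) lies at 0.05 and 3.50 in the HuR IP and at 0.04 and 3.44 in the IgG1 IP. Genes inducible by IFNγ, CCL2 and CCL8 among them, are orange and other CC chemokines blue.

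Among the CC chemokines, the family of CCL5, 19 of 25 others were measured. In the HuR IP at 18 h 3 of them rose, CCL2, CCL8 and CCL13, where 1.13% of all genes were called, and limma called 0 in the HuR IP at 3 h or in the IgG1 IP at either time (0.563%, 1.13% and 1.41% of all genes). These shares are over all 355 genes, with the members named here and CCL5 itself among them. The antibodies are not shown to differ by these counts, since limma called 0 of 355 genes for the difference of the stimulated change at either time. The median change was 0.07 at 3 h and 0.29 at 18 h in the HuR IP, and -0.15 and -0.03 in the IgG1 IP. CCL2, which draws monocytes through CCR2, changed by 3.34 at 3 h and 4.59 at 18 h in the HuR IP (limma adjusted p = 0.0128 at 18 h) and by 3.61 and 3.52 in the IgG1 IP (limma adjusted p = 0.0530 and 0.0562). Its changes at 3 h were thus above 3 with both antibodies, where those of CCL5 were 0.05 and 0.04.

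Other ligands of the CCL5 receptors had 10 of 15 members measured. CCL8 changed by 2.96 at 3 h and 3.87 at 18 h in the HuR IP (limma adjusted p = 0.0452 at 18 h), and by 3.09 and 2.80 in the IgG1 IP (limma adjusted p = 0.151 and 0.182). CCL13 changed by 1.40 and 2.58 in the HuR IP (limma adjusted p = 0.0452 at 18 h), and by 1.17 and 1.01 in the IgG1 IP. Of this list 2 members passed, CCL8 and CCL13 in the HuR IP at 18 h, where 1.13% of all genes were called, which is no test of a difference between the antibodies. CCL7 changed by 0.71 at 18 h in the HuR IP and 0.26 in the IgG1 IP, and CCL4 by 0.32 and 0.02. CCL20, which binds CCR6, changed by 1.00 and 0.16.

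The CCL5 receptors CCR1 and CCR3 passed in none of the 4 comparisons of stimulated with untreated cells, where 0.563% to 1.41% of all genes were called. At 18 h CCR1 changed by 0.48 in the HuR IP and -0.11 in the IgG1 IP, and CCR3 by 0.06 and -0.35.

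Transcripts of factors described at the CCL5 promoter had 16 of 20 members measured. In the HuR IP 1 rose at 3 h and 0 at 18 h, and in the IgG1 IP 1 rose at 3 h and 2 at 18 h, beside 0.563%, 1.13%, 1.13% and 1.41% of all genes in the same order. IRF1 was the member that rose at 3 h, by 2.75 in the HuR IP (limma adjusted p = 0.0125) and by 2.69 in the IgG1 IP (limma adjusted p = 0.0162), at a time when CCL5 differed by 0.05 and 0.04. At 18 h IRF1 changed by 1.74 in the HuR IP and rose by 2.23 in the IgG1 IP (limma adjusted p = 0.0259). RELA changed by 0.58 at 3 h and 1.31 at 18 h in the HuR IP and by 0.98 and 2.11 in the IgG1 IP, and NFKB2 by 0.60 and 1.04 at 18 h; neither passed.

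CCL5 is also made by T cells and NK cells, so the 10 measured of 21 genes on a list of those cells were summed. The summed linear level relative to the array median was 9.00 to 9.19 in stimulated cells at 18 h in the HuR IP, against 9.21 to 9.99 in untreated cells. In the IgG1 IP it was 7.88 to 17.0 in stimulated cells, against 8.91 to 10.7 in untreated cells. Of these genes 0 passed in any comparison of stimulated with untreated cells. Only 0.563% to 1.41% of all genes were called there, so this count does not set the list apart from the rest. The highest sum came from the set 1 IgG1 array, where CD3G, part of the T cell receptor complex, stood at 3.11 and CCL5 at 0.97, and without CD3G its sum was 8.32. The set 3 IgG1 array, with CCL5 at 5.51, had a sum of 13.5 with CD3G at 2.81, and 6.50 without CD3G. On the set 4 IgG1 array, with CCL5 at 3.66, CD3G stood at -0.54. The part of these genes in the CCL5 levels was not tested. No probe with values was at 0, so an absent marker could not be told from background. The 9 epithelial genes listed had 0 measured members, so the label of the cells was not checked against them.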

How the data were processed

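RNA from 24 immunoprecipitates was measured on membrane arrays. The authors deposited a table of intensity, which its name calls non-normalized, as whole numbers; neither labels nor headers describe image analysis or background treatment. Of 384 probes 355 hold values. A second deposited intensity table is the first multiplied by 1 factor per array (0.542 to 3.641, departures up to 2.90 units). Symbols were looked up by accession in GRCh38.p14 gene names, which matched 342 of the 355. From the deposited intensities, log2 values were centred on each array's median. The fit used limma 3.58.1 in R 4.3.3, with 1 coefficient per group over all 24 arrays and no block, Benjamini-Hochberg adjustment over 355 genes and a threshold of 0.05. It was tested on simulated data.

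CCL5, the lists and the comparisons were chosen with earlier results of these data known. Named genes are the 8 most correlated with CCL5 over arrays and over group means, CCL5 receptors, and, of each list, the members that passed plus up to 3 others with the greatest mean absolute change. Genes flagged below are on the lists. Of the measured genes, 2 are not reported here by name or value. The number of arrays limits the precision.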

Additional observations from a re-analysis of the deposited data

Results flagged for a closer look

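CD3G, a T cell receptor gene on the list set beside CCL5, had stimulated minus untreated values in the IgG1 IP that were below 0 in each set at 3 h and above 0 in each set at 18 h. By set it gave -0.08, -0.12 and -0.43 at 3 h (mean -0.21) and 1.61, 2.72 and 0.07 at 18 h (mean 1.47), which is 1.67 higher at 18 h than at 3 h. This difference was not tested. The 18 h mean had an SE of 0.81. The stimulated IgG1 arrays at 18 h had medians of 3021, 2303 and 12399 units in sets 1, 3 and 4. CD3G stood at 3.11, 2.81 and -0.54 on them, and the part of the dim arrays was not tested. Over the 10 measured genes of that list the median change in the IgG1 IP at 18 h was -0.09, with 3 above 0. COL1A1, a collagen gene of the fibroblast and endothelial list, gave stimulated minus untreated values at 18 h of -0.77, -0.95 and -1.01 in the HuR IP (mean -0.91) and of 0.08, 0.06 and 0.36 in the IgG1 IP (mean 0.16). The IgG1 value was 1.08 higher, and this difference was not tested. Each of the 2 means had an SE of 0.85. The other measured genes of that list did not share a direction in the HuR IP at 18 h, with COL1A2 at -0.44 and COL3A1 at 0.21. In the IgG1 IP they gave 0.05 and -0.01. Neither gene passed in a comparison of stimulated with untreated cells.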

How the results depend on the processing

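No alternative brought a comparison of the antibodies for CCL5 past the threshold in limma: of 198 alternative values, 0 had an adjusted p under 0.05 (lowest 0.141), and 39 had the other sign. The cause of the differences below was not tested. For HuR IP minus IgG1 IP, the mean over conditions was 0.04 in the second table and -0.50 after normexp. It was -0.54 to 0.03 on leaving out sets or arrays. In stimulated cells at 18 h it was 1.11 without centring, 0.48 with equal spread on every array, 0.06 after normexp and 1.37 in the second table, and -1.47 to 0.80 on leaving out sets or arrays. Untreated cells at 18 h gave -1.11 after normexp, -0.67 in the second table and -0.61 without centring. They gave -0.62 to 0.05 on leaving out sets or arrays. The difference of the stimulated change at 3 h was -0.14 after quantile normalization, -0.02 with equal spread and -0.11 after normexp (-0.23 to 0.22 leaving out). At 18 h it was -0.30 with array weights, 2.04 in the second table, 1.71 without centring, 1.16 after normexp and 0.69 with equal spread (-1.15 to 1.13 leaving out). For the gain the same settings gave -0.51, 2.02, 1.46, 1.27 and 0.71 (-1.16 to 1.11 leaving out).

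The stimulated CCL5 difference at 18 h kept its direction under every alternative run, at 2.95 to 5.71 in the HuR IP and 1.97 to 4.74 in the IgG1 IP. Normexp gave 5.71 there for the HuR IP, 5.27 for its 18 h minus 3 h difference and 5.27 for its gain, and in the IgG1 IP 0.55 at 3 h and 0.69 between times in untreated cells, which the second table put at 0.48. Centring on the 75th percentile gave -0.12 in the IgG1 IP at 3 h.

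Counts of all genes called, stimulated against untreated, were 2, 4, 4 and 5 (HuR IP at 3 h and 18 h, then IgG1 IP at 3 h and 18 h). In the HuR IP at 3 h they were 1 without centring, 7 with quantile normalization, 9 at the 75th percentile, 5 with equal spread, 7 in the second table and 16 with array weights. At 18 h they were 9 with quantile normalization, 11 at the 75th percentile, 10 with equal spread, 11 after normexp, 9 in the second table, 11 with array weights, 7 on brighter probes and 2 on the compared arrays alone. In the IgG1 IP at 3 h they were 1 without centring, 7 with quantile normalization, at the 75th percentile and with equal spread, 18 with array weights and 0 on the compared arrays alone. At 18 h they were 0 without centring, in the second table and on the compared arrays alone, and 20 with array weights. Leaving out sets or arrays gave 0 to 19, 0 to 11, 0 to 17 and 0 to 24. For the HuR IP minus IgG1 IP mean, 1 gene was called with equal spread and 2 in the second table, against 0.

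With the replicate block, which treats the set number as pairing, counts were 8, 13, 9 and 18. Deviations within sets had a median correlation of 0.643, with 2 of 84 pairs at or under 0.1, so arrays of a set mostly moved together. The main fit still left the set number out. Its errors therefore hold the differences between sets, and its counts of called genes were below those with the block.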
